A study of Mus musculus with 26 samples.

Results

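The 4 Dppa genes followed here, Dppa2, Dppa3, Dppa4 and Dppa5a, were taken by name from the 54589 gene rows that 3 mouse RNA-seq tables hold between them. The study asked what Tex10 does while germ cells form in culture and in the testis, and it comprises 26 libraries. In the degron table, cells of strain 129Sv/J were sampled as untreated epiblast-like cells (EpiLCs) and as primordial germ cell-like cells (PGCLCs) at day 2 and day 4, in DMSO or in dTAG13 at 500 nM, with 2 libraries in each of the 5 groups. dTAG13 is a small molecule that marks a protein with a degron tag for breakdown; the labels describe neither the tag on Tex10 nor a line without it, so an action of the compound itself cannot be told apart. In the overexpression table, 1 empty-vector line and 2 Tex10 overexpression clones, also 129Sv/J, were followed from EpiLCs through the second, the fourth and the sixth day of induction, with 1 library per line and stage. The testis table holds 2 wildtype and 2 Tex10 conditional knockout (cKO) testes of strain C57BL/6N. The Cre driver and the ages of the mice are not given in the sources used here. All 4 genes had a row in both cell tables and passed the filter on low values there, Dppa3 in the overexpression table only through its day 2 clone libraries. Of the 4, Dppa2 and Dppa4 had a row in the testis table and neither passed it, while Dppa3 and Dppa5a were not analysed here. Nothing in the labels says that libraries with the same title stem came from separate cultures, so p-values measure the spread between libraries, which may be technical.

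The Dppa genes (developmental pluripotency associated) were named for their expression in pluripotent cells, not for a shared fold. Dppa2 and Dppa4 are neighbours that encode chromatin proteins with a SAP domain, which bind each other and help to open genes of the early embryo and to keep some promoters free of DNA methylation. Dppa3, also called Stella or PGC7, is a maternal factor and a classical marker of germ cells, known for keeping UHRF1 and the maintenance of DNA methylation in check. Dppa5a encodes a small protein with a KH-type RNA-binding domain and is abundant in pluripotent and germ cells.

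In GENCODE M21 (GRCm38, the mm10 build that the submitters' processing notes name) Dppa4 lies at chr16:48283733-48294237 and Dppa2 beside it at chr16:48303908-48319723, both on the plus strand. Dppa3 lies at chr6:122626410-122630272 on the plus strand, between Gdf3 and Nanog. Dppa5a lies at chr9:78367052-78368177 on the minus strand. All 4 are protein coding, and the genome also carries processed pseudogene copies of each, which are spliced messages copied back into the DNA elsewhere. Of the 50-base words in the annotated transcripts, 697 of 2398 (29.1%) of Dppa2, 139 of 842 (16.5%) of Dppa3, 519 of 1659 (31.3%) of Dppa4 and 220 of 570 (38.6%) of Dppa5a also occurred in a transcript of another gene. How reads that match more than 1 place were counted is not given in the sources used here, so the level of each gene is uncertain to the extent of these copies.

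The stretches below are shown because they join exons in the gene and yet recur, whole or nearly so, in its copy. A read across the splice junction that covers none of the bases in capitals does not tell the gene from the copy. Each is coding sequence, with 45 bases on each side of the junction between exons 2 and 3 (Dppa2, Dppa3, Dppa5a) or exons 4 and 5 (Dppa4). They are read 5′ to 3′ from the GENCODE transcripts, and capitals mark the bases at which gene and copy differ. The stretches of Dppa2 and Dppa4 are identical over all 90 bases in Gm9788 (chr19:41459813-41460718, plus strand) and in Gm14058 (chr2:122214620-122215354, minus strand). Dppa3 and Dppa3-ps (chrX:37625647-37626097, minus strand) differ at 1 base, and Dppa5a and Gm6083 (chr5:29538153-29538509, plus strand) at 2.
Dppa2: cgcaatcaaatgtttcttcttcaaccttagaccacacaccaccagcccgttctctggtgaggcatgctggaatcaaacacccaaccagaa
Dppa4: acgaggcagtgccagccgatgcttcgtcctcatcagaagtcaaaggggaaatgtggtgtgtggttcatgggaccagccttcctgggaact
Dppa3: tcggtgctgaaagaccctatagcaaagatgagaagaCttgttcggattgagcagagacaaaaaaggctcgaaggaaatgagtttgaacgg
Dppa3-ps: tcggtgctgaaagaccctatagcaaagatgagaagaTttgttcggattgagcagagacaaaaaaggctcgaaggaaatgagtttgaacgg
Dppa5a: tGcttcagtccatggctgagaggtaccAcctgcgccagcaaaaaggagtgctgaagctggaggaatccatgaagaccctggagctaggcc
Gm6083: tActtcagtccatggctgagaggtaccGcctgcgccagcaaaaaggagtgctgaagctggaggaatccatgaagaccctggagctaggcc

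The copies took a large part of the counts. In the degron table they held between 30.0 and 41.9% of the summed value of Dppa2 and its copies, between 30.7 and 46.5% for Dppa4, between 33.5 and 43.6% for Dppa5a and between 47.1 and 81.5% for Dppa3. In the overexpression table, made with another library kit, the ranges were 53.1 to 58.2% for Dppa2, 64.5 to 70.8% for Dppa4, 18.9 to 24.4% for Dppa5a and 85.7 to 97.0% for Dppa3. For all 4 genes the ranges of the 2 tables did not overlap. Each comparison below was therefore also made with the copies' reads added to the gene, an alternative chosen after seeing the data, and is given beside the gene's own value where it matters.

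**Figure D1:**
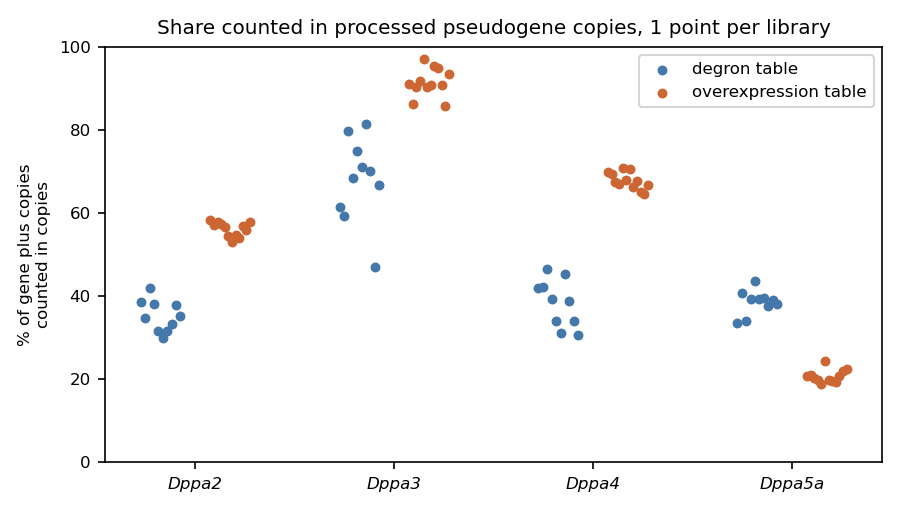
Percent of the summed TMM-scaled value of a gene and its processed pseudogene copies that was counted in the copies (vertical axis, %), for each Dppa gene, with 1 point per library (10 of the degron and 12 of the overexpression table). Dppa3 stands highest, at 85.7 to 97.0% in the overexpression table, and each gene's points fall into 2 ranges by table.

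Values are TMM-scaled CPM, in which 1 read was worth between 0.0996 and 0.187 in the 22 cell libraries. Reads in the tables ran from 5055362 to 8564563 per library. Differences are on the log2(value + 1) scale, with standard errors and Benjamini-Hochberg adjusted p-values over all genes tested, from limma. The labels were checked on Tex10 and on marker genes. Tex10 was at 145 to 213 in the 4 empty-vector and at 330 to 654 in the 8 clone libraries, and at 44.1 and 79.1 in wildtype and 27.3 and 29.8 in cKO testes. It was higher in the clones over all stages by 1.47 ± 0.106 (limma adjusted p 2.14e-11) and lower in the cKO testes by 1.02 on the log2 scale. Under dTAG13, which acts on the protein that these data do not measure, its mRNA differed by -0.14 at day 2 (limma adjusted p 0.322) and by -0.51 at day 4 (limma adjusted p 5.76e-04). The summed level of 5 epiblast markers was 1256 to 1489 in degron-table EpiLCs and 144 to 177 in day 2 DMSO cells, and that of 5 germ cell markers was 40.2 to 46.0 and 186 to 204. In the testis, 5 spermatid markers summed to 16924 to 19336 in wildtype and 12468 to 12981 in cKO.

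Per kilobase of exon, Dppa5a was the most abundant of the 4 in EpiLCs of the degron table, at 138 per kb (mean of 2 libraries), followed by Dppa4 at 37.0 and Dppa2 at 33.5, with Dppa3 at 1.39. In the empty-vector EpiLCs Dppa5a was again first at 371 per kb and Dppa3 last at 0.505. Without their copies Dppa2 was at 44.9 and Dppa4 at 36.2. In that library the ratio of the Dppa2 to the Dppa4 value, not divided by length, was 1.83 alone and 1.32 with copies added. The order of these 2 genes per kb there is therefore uncertain. The tables were scaled separately and with different kits, so levels were not compared between them.

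In the degron table Dppa2 and Dppa4 were highest in EpiLCs and were lower at day 2 of induction. Dppa2 was at 81.5 and 82.3 in the 2 EpiLC libraries, 62.6 and 56.5 in day 2 DMSO and 74.2 and 61.7 in day 4 DMSO. Dppa4 was at 62.2 and 60.8, 42.9 and 43.3, and 41.3 and 49.2 in the same order. For both genes every EpiLC library lay above every DMSO library, and the day 2 and day 4 libraries of Dppa4 overlapped. From EpiLC to day 2, Dppa2 fell by 0.46 ± 0.13 (limma adjusted p 0.00951) and Dppa4 by 0.50 ± 0.13 (0.00464). These were the 2 genes of the 4 that were called, against 26.2% of the 16605 genes tested. The EpiLCs were untreated and the day 2 cells in DMSO, so stage and solvent cannot be told apart. The call for Dppa2 was lost without EpiLC library 1, EpiLC library 2 or day 2 DMSO library 2 (adjusted p from 0.0242 to 0.106 over the 4 libraries left out), and after quantile normalization (0.0726). The call for Dppa4 held in each of these (highest adjusted p 0.0391). In bulk samples fewer cells of a type and less RNA per cell cannot be told apart.

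The empty-vector line and the clones gave the same direction. Dppa2 was at 110 in the EpiLC empty-vector library and at 105 and 97.4 in the clones, and at day 2 at 83.9, 91.4 and 89.0. Dppa4 was at 60.1, 61.0 and 59.3 and then at 46.8, 46.8 and 48.3, with no overlap between the stages for either gene. With the line as a block, Dppa2 fell by 0.24 ± 0.10 (limma adjusted p 0.0469) and Dppa4 by 0.34 ± 0.11 (0.0147), in a comparison in which 46.3% of 15255 genes were called. Without the block the adjusted p of Dppa2 was 0.0786. Its call was also lost with a pseudocount of 0.1 (0.0535), with no filter (0.111), after quantile normalization (0.0596), without either clone at all stages (0.143 and 0.0758), without the variance trend (0.154) and without any of 5 single libraries, the empty-vector EpiLC library among them (-0.14, 0.289). That of Dppa4 was lost without the variance trend (0.0619), without clone 1 at day 2 (0.0759) and without either clone at all stages (0.106 and 0.0577). From day 2 to day 4 and from day 4 to day 6 neither gene was called, and Dppa2 ended at 101 in the empty-vector and at 96.0 and 104 in the clone libraries of day 6. With the copies added, Dppa2 rose from day 4 to day 6 by 0.35 ± 0.09 (limma adjusted p 0.0202).

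Dppa5a followed another course, and the tables differed. In the degron table it was at 94.4 and 76.8 in EpiLCs, 109 and 72.1 in day 2 DMSO and 96.7 and 107 in day 4 DMSO. The day 2 range spanned those of EpiLCs and of day 4, and the differences of 0.06 ± 0.15 and 0.19 ± 0.15 were not called. From day 2 to day 4 DMSO 5.52% of genes and none of the 4 were called. In the overexpression table it was at 230, 271 and 248 in EpiLCs (empty vector, clone 1, clone 2), at 242, 363 and 367 at day 2, at 133, 219 and 251 at day 4 and at 146, 169 and 164 at day 6. Each line had its highest value at day 2. With the line as a block it rose by 0.35 ± 0.10 from EpiLC to day 2 (limma adjusted p 0.00483) and fell by 0.71 ± 0.10 from day 2 to day 4 (5.30e-06), where 23.0% of genes were called. The rise lay mainly in the clones, from 271 to 363 and from 248 to 367, while the empty-vector line went from 230 to 242. The fall was seen in all lines. With Dppa2 and Dppa4, 3 of the 4 genes were thus called at the first step, where 46.3% of all genes were called, and Dppa5a at the second. Dppa3 is not counted at either step, because its day 2 libraries carried it past the filter. The rise depended on the model, at an adjusted p of 0.115 without the block, 0.0923 without the variance trend and 0.0766 without clone 2 in EpiLCs, and on both clones, at 0.0945 without clone 1 and 0.106 without clone 2 at all stages, whereas the fall was called in each of these. From day 4 to day 6, where 6.88% of genes and none of the 4 was called, it differed by -0.28, with adjusted p under 0.05 once the empty-vector library of day 4 (0.00311) or of day 6 (0.0358) was left out. The summed level of 9 mesoderm and endoderm markers was 19.4 at day 2 and 57.3 at day 4 in the empty-vector line. In the clones it was 11.4 to 16.2 and 32.5 to 37.9, and the part of these markers in the fall of Dppa5a was not tested.

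Dppa3 itself was close to the floor of detection. It was at 1.27 and 1.22 in EpiLCs (10 and 11 reads), 1.89 and 2.31 in day 2 DMSO (15 and 17 reads) and 1.07 and 1.10 in day 4 DMSO (10 and 11 reads), against a floor of 3 reads at 0.299 to 0.407 in these libraries. Its differences of 0.46 ± 0.30 and -0.57 ± 0.30 were not called, although the first was called without the variance trend (limma adjusted p 0.0442). Its pseudogene Dppa3-ps held more reads over the same course, at 2.03 and 1.77, then 7.42 and 5.02, then 4.73 and 2.49. Dppa3-ps rose from EpiLC to day 2 by 1.30 ± 0.31 (limma adjusted p 0.00339), with both day 2 libraries above both EpiLC libraries. Without day 2 DMSO library 1 the adjusted p was 0.0658. Dppa3 with its copies rose by 1.16 ± 0.27 (0.00290). In the authors' deposited table the FDR of this step was 0.00452 for Dppa3-ps and 0.933 for Dppa3.

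In the overexpression table Dppa3 had 2 to 34 reads per library and Dppa3-ps 20 to 322. Dppa3 had a mean of 1.17 here and fell below the filter on low values without its day 2 libraries (0.693) or without the clones (0.626), so its differences are given as descriptions. Dppa3-ps was at 4.66, 11.3 and 11.5 in EpiLCs, at 14.5, 45.1 and 48.7 at day 2, at 4.60, 6.85 and 10.6 at day 4 and at 3.01, 4.88 and 4.22 at day 6, in the order empty vector, clone 1, clone 2. All 3 lines were highest at day 2. It rose from EpiLC to day 2 by 1.78 ± 0.22 (limma adjusted p 1.55e-07) and fell by 2.04 ± 0.22 to day 4 (1.02e-07). Dppa3-ps differed by -0.68 ± 0.22 from day 4 to day 6, which was called in edgeR (0.0472) and without the empty-vector library of day 6 (-0.92, 0.0239). Dppa3 alone differed by 0.63 ± 0.34 at the first step and by -1.16 ± 0.34 from day 2 to day 4. Both are given without a test, because the filter selected on day 2. The first ran from 0.17 without clone 2 at day 2 to 0.95 without clone 1 at day 2 and 1.06 without clone 1 at all stages. The second rested on clone 2 at day 2, at 5.15 against 1.29 and 1.39 in the other lines. It was -0.70 without this library and -0.75 without clone 2 at all stages. With the copies added Dppa3 rose by 1.74 and then fell by 2.06 (limma adjusted p 2.04e-07 and 7.34e-08). Outside the 4, Dppa5b and Dppa5c were at 0 in all cell libraries, where 3 reads would be 0.299 to 0.560, and Dppa1 was at 0.535 or less.

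**Figure D2:**
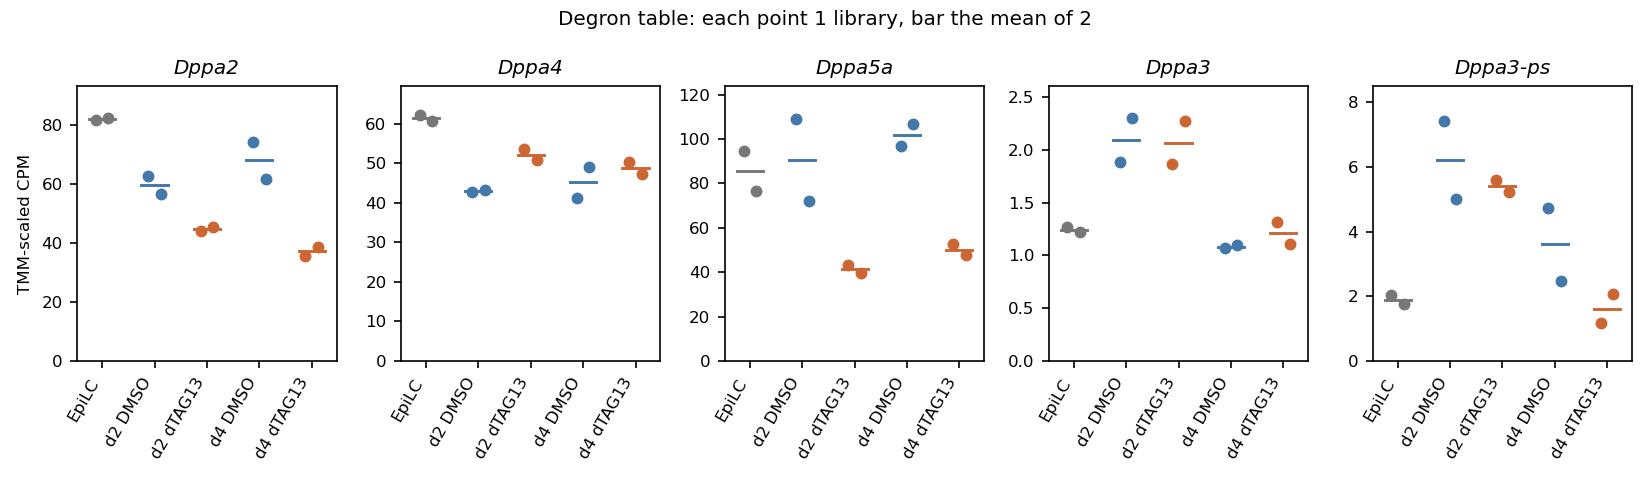
TMM-scaled CPM (vertical axes, linear from 0, a scale of its own in each panel) of the 4 Dppa genes and Dppa3-ps in the degron table, by group. Points are libraries and bars the means of 2; under dTAG13 both libraries of Dppa2 and Dppa5a lie below both DMSO libraries on each day, while the Dppa4 libraries do not.

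Under dTAG13 Dppa2 and Dppa5a were lower on both days and Dppa4 was not. At day 2 in dTAG13 Dppa5a was at 43.4 and 39.9, against 109 and 72.1 in DMSO, and at day 4 at 52.5 and 47.7 against 96.7 and 107. The lowest DMSO library lay above the highest dTAG13 library on each day. Dppa5a fell by 1.08 ± 0.15 at day 2 (limma adjusted p 1.34e-05) and by 1.01 ± 0.15 at day 4 (1.68e-05). Both calls held under every alternative tried, with adjusted p of at most 0.00635 and 0.00576, and the difference between the days of 0.07 ± 0.22 was not called. With copies added the falls were 0.97 and 1.01.

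Dppa2 was at 44.0 and 45.5 in day 2 dTAG13 against 62.6 and 56.5 in DMSO, and at 35.6 and 38.6 in day 4 dTAG13 against 74.2 and 61.7. The groups did not overlap on either day. It fell by 0.40 ± 0.13 at day 2 (limma adjusted p 0.0165) and by 0.85 ± 0.13 at day 4 (1.13e-05). Dppa2 and Dppa5a, 2 of the 4 genes, were thus lower on each day, against 19.9% of all genes lower in the day 2 and 26.0% in the day 4 comparison (33.6% and 41.8% in either direction). The median difference of the 4 was -0.21 on the first and -0.38 on the second of these days, and that of all genes -0.09 and -0.13. The day 2 DMSO libraries serve both this comparison and the step from EpiLC. The day 4 fall of Dppa2 held under every alternative (adjusted p of at most 0.00194). The day 2 call did not: it was lost after median-ratio scaling (-0.30, 0.0685), quantile normalization (0.0544), without the variance trend (0.0602), in edgeR (0.0686) and DESeq2 (0.133) on the recovered reads, and without day 2 DMSO library 1 (-0.33, 0.152), dTAG13 library 1 (0.0867) or dTAG13 library 2 (0.0572). With the copies added it was larger, at -0.61 ± 0.12 (limma adjusted p 3.61e-04). The difference between the days, -0.45 ± 0.18 for Dppa2, was not called (limma adjusted p 0.288), and neither was that of the other 3 genes, where 1.25% of genes were called. In the authors' deposited table the FDR of Dppa2 was 0.451 at day 2 and 0.00189 at day 4, and that of Dppa5a 0.00886 and 0.0153.

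Dppa4 was at 53.6 and 50.8 in day 2 dTAG13, both above the 42.9 and 43.3 in DMSO, and at 50.5 and 47.4 in day 4 dTAG13, which overlapped 41.3 and 49.2. The differences of 0.27 ± 0.13 (limma adjusted p 0.103) and 0.11 ± 0.13 (0.499) were not called. On the deposited scale the median of all tested genes was itself -0.09 at day 2 and -0.13 at day 4, and under median-ratio scaling, which brought these to 9.39e-04 and -0.02, Dppa4 was called higher at day 2 (0.37, limma adjusted p 0.0255), as it was after quantile normalization (0.0282) and in edgeR (0.0314). With the copies added the difference at day 2 was 0.04 (0.842) and at day 4 -0.11 (0.486).

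The copies of one gene did not move alike. For Dppa4, Gm14058 differed by -0.02 at day 2 and -0.06 at day 4 under dTAG13 (limma adjusted p 0.948 and 0.827), while Gm5501, on chromosome 18, fell by 0.91 and 1.05 (0.00465 and 0.00103). For Dppa5a, Gm6798 was at 27.3 and 13.0 in day 2 DMSO and 4.04 and 4.95 in dTAG13, and differed by -1.86 at day 2 and -1.87 at day 4, both called (limma adjusted p 3.50e-05 and 1.92e-05). Gm6083 differed by -0.30 at day 2 (0.282) and fell by 0.60 at day 4 (0.0239). Gm9788, which matches Dppa2, fell by 0.98 and 0.58 (5.00e-05 and 0.00491). The differences between copies were not tested.

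Dppa3 showed no change at its depth, at 1.86 and 2.27 in day 2 dTAG13 against 1.89 and 2.31 in DMSO, and 1.32 and 1.11 against 1.07 and 1.10 at day 4. The differences were -0.01 ± 0.30 and 0.09 ± 0.30 on 7 to 17 reads per library. Dppa3-ps was at 5.59 and 5.22 in day 2 dTAG13, within the 5.02 to 7.42 of DMSO, and at 1.17 and 2.07 in day 4 dTAG13, below the 4.73 and 2.49 of DMSO. It was called lower at day 4, by 0.79 ± 0.31 (limma adjusted p 0.0457). That call was lost without day 4 DMSO library 1 (-0.43, 0.389) or dTAG13 library 1 (-0.54, 0.275), and under 5 of the other alternatives, median-ratio scaling among them (0.0834). Dppa3 with its copies differed by -0.54 ± 0.27 (0.123).

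**Figure D3:**
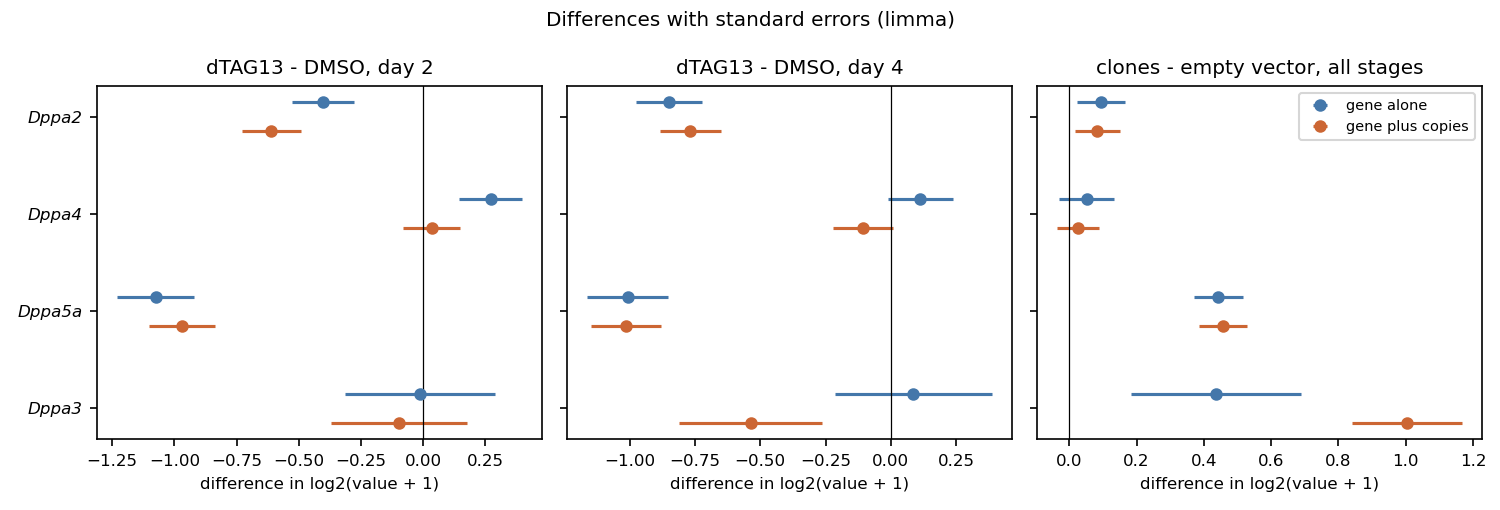
Differences on the log2(value + 1) scale (horizontal axes) with standard errors from limma, for each Dppa gene alone and with its processed pseudogene copies added. The panels show dTAG13 minus DMSO at day 2 and day 4 and clones minus empty vector over all stages. Adding the copies moves Dppa3 in the last panel from 0.44 to 1.00 and Dppa4 at day 2 from 0.27 to 0.04.

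Dppa2 and Dppa4, whose proteins act as a pair, thus stood in another proportion under dTAG13. The ratio of the Dppa2 to the Dppa4 value, a measure chosen after seeing the values and given with no test, was 1.31 and 1.35 in EpiLCs, 1.46 and 1.30 in day 2 DMSO and 1.79 and 1.26 in day 4 DMSO. In dTAG13 it was 0.820 and 0.895 at day 2 and 0.706 and 0.815 at day 4. All 4 dTAG13 libraries were below the other 6. The values were not divided by length (2447 exonic bases for Dppa2 and 1662 for Dppa4), so a ratio of 1 does not mark equal abundance. With copies added the ranges were 0.749 to 0.880 and 1.15 to 1.44. In the overexpression table the ratio lay between 1.64 and 2.16 in all libraries. Within a library this ratio does not depend on the scaling.

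**Figure D4:**
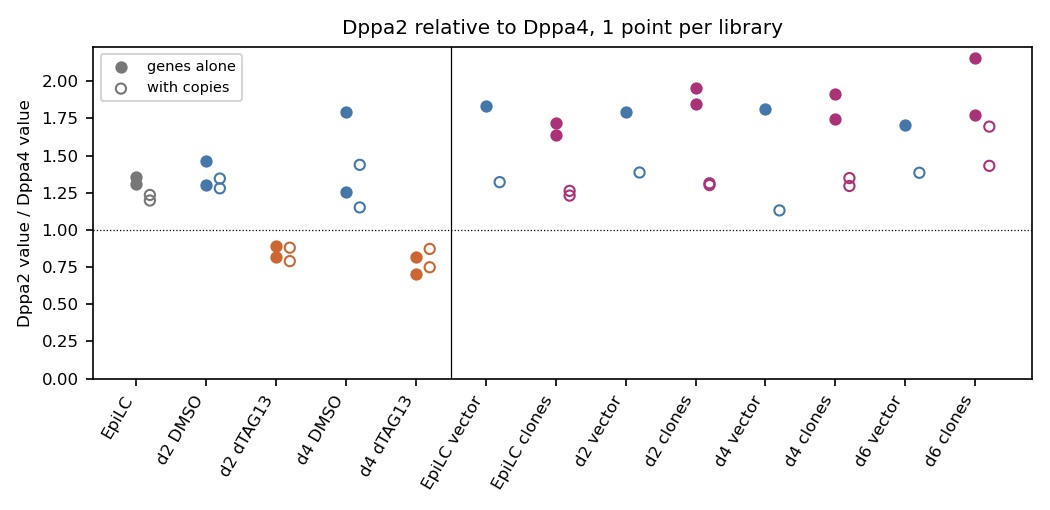
Ratio of the Dppa2 to the Dppa4 value (vertical axis, no unit) in each library of the degron table (left of the line) and the overexpression table (right), for the genes alone (filled) and with copies added (open). For the genes alone the 4 dTAG13 libraries lie between 0.706 and 0.895 and all other libraries above 1. Values are not divided by length, so 1 does not mark equal abundance.

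Under dTAG13 the summed markers of some cell types differed from DMSO, while the germ cell and epiblast sums overlapped at day 2. The summed level of 9 mesoderm and endoderm markers was 13.6 to 16.7 in day 2 DMSO and 35.6 to 45.8 in day 2 dTAG13, and 19.2 to 21.3 and 42.7 to 44.8 at day 4. Of the 9, 4 were tested and 2 were called higher on each day, where 13.7% and 15.8% of all genes were called higher. The summed level of 5 fibroblast markers was 3.14 to 3.26 and 6.22 to 9.63 at day 2, and 2.15 to 5.48 and 9.24 to 9.69 at day 4. Germ cell markers summed to 186 to 204 and 198 to 202 at day 2, and to 156 to 173 and 224 to 236 at day 4, where the groups did not overlap. On each day 1 of the 5 germ cell markers, Tfap2c, was called higher (by 0.69 and 1.78) and 2 were called lower, Prdm1 (-1.13 and -1.65) and Prdm14 (-1.89 and -2.08), where 33.6% and 41.8% of all genes were called in either direction. The median of the 5 was -0.37 and -0.60, against -0.09 and -0.13 over all genes. Epiblast markers summed to 144 to 177 and 157 to 159 at day 2, and to 75.0 to 89.6 and 96.3 to 101 at day 4. Other lists were lower in dTAG13. Spermatogonia markers, of which Kit had the highest mean, summed to 61.6 to 65.0 in DMSO and 16.5 to 24.4 in dTAG13 at day 2. At day 4 they summed to 135 to 153 and 29.2 to 37.3. Sertoli cell markers summed to 31.4 to 31.8 and 15.4 to 16.5 at day 2, and to 13.2 to 14.9 and 6.99 to 7.48 at day 4. The part of these markers in the Dppa differences was not tested. Foxa2 was at 0 in both day 2 DMSO libraries, Mesp1 in both day 4 DMSO libraries, T in both day 4 dTAG13 libraries and Col3a1 in the 4 libraries of day 2.

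Overexpression of Tex10 was compared with the empty vector over all stages and at each stage. Only 1 empty-vector line and 2 clones were sampled, so a difference between cell lines cannot be told apart from overexpression. The fit over all stages treats libraries of 1 line as separate samples, so its p-values are too small as a test over lines. Dppa5a was higher in both clones than in the empty-vector line at every stage, with the values given above. Over all stages it rose by 0.44 ± 0.07 (limma adjusted p 1.29e-04, higher in both clones), the 1 gene of the 4 that was called, against 8.76% of genes. At single stages the lone empty-vector library was assumed to vary like the clones. Dppa5a rose at day 2 by 0.59 ± 0.09 (limma adjusted p 2.78e-05), where 5.95% of genes were called, and at day 4 by 0.81 ± 0.09 (1.07e-07), where 7.89% were. In EpiLCs and at day 6, where 2.71% and 2.02% of genes and none of the 4 were called, it differed by 0.18 ± 0.09 (0.405) and 0.19 ± 0.09 (0.361). The effect differed between stages in limma's F test (adjusted p 0.00195), as it did for 3.09% of genes. Each of these Dppa5a calls was lost without the variance trend, where at most 7 genes were called at any single stage: the adjusted p was 0.0609 over all stages, 0.158 at day 2, 0.0882 at day 4 and 0.421 between stages. The last was also 0.122 with no filter on low values. In the authors' deposited table the FDR of Dppa5a was 2.63e-06 at day 2 and 7.80e-11 at day 4.

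Dppa2 differed from the empty vector at day 4, where it was at 69.4 in the empty-vector library and at 91.4 and 94.4 in the clones. It rose by 0.42 ± 0.11 (limma adjusted p 0.0135). The difference stayed between 0.39 and 0.46 under every alternative run, but was not called without clone 2 (0.0651), with no filter (0.0554), without the variance trend (0.181) or in DESeq2 (0.0920). Dppa4 was at 38.3, 52.3 and 49.3 at day 4, and its difference of 0.40 ± 0.14 was not called (limma adjusted p 0.0691). At day 6 neither gene was higher in both clones, with Dppa4 at 59.5 in the empty vector and 54.2 and 48.2 in the clones. The single empty-vector library of day 4 was the lowest of its line for Dppa2, Dppa4 and Dppa5a. In that library 9 mesoderm and endoderm markers summed to 57.3, against 32.5 and 37.9 in the clones, and 5 germ cell markers to 219 against 165 and 169. Of these 5, Tfap2c was called lower (-0.80, limma adjusted p 5.03e-04) and the other 4 were not called, where 7.89% of all genes were called. The median over all 5 was 0.06. At day 2, 5 epiblast markers summed to 362 in the empty-vector library and to 267 and 274 in the clones, and 5 fibroblast markers to 11.1 and to 6.47 and 7.27. Fibroblast sums were also above both clones in the empty-vector library of EpiLCs (9.76 against 5.63 and 5.82), of day 4 (8.58 against 6.02 and 6.35) and of day 6 (11.9 against 5.53 and 9.17). Germ cell markers at day 2 summed to 249 in the empty-vector library and to 282 and 290 in the clones (median difference 0.21). Mesoderm and endoderm markers at day 2 summed to 19.4 against 11.4 and 16.2, and epiblast markers at day 4 to 140 against 112 and 121. The part of these markers in the differences was not tested. The effect on Dppa2 was not called as differing between stages (limma F test, adjusted p 0.129), but was with its copies added (0.0144).

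Dppa3-ps was higher in both clones at every stage, by 1.00 ± 0.17 over all stages (limma adjusted p 1.43e-04). It rose by 1.14 ± 0.30 in EpiLCs (0.0279) and by 1.63 ± 0.30 at day 2 (4.05e-04), and differed by 0.77 ± 0.30 at day 4 and 0.47 ± 0.30 at day 6, neither called. The day 4 difference was 1.06 and called without clone 1 (0.0434) and 0.49 without clone 2 (0.512). The EpiLC call was lost without clone 1 (0.164) or clone 2 (0.168), with no filter (0.113), without the variance trend (0.181) and in DESeq2 (0.131). The day 2 call was lost without the variance trend (0.0977). Dppa3 alone differed by 0.44 ± 0.25 over all stages, given as a description because it passed the filter only through its clone libraries. With its copies it rose by 1.00 ± 0.16 over all stages (limma adjusted p 1.16e-04), by 1.19 ± 0.29 in EpiLCs (0.0164) and by 1.60 ± 0.29 at day 2 (3.90e-04). Of the sum of Dppa3 and its copies, 85.7 to 97.0% lay in the copies, so these values largely repeat those of Dppa3-ps. The effect on the sum was not shown to differ between stages (limma F test, adjusted p 0.308).

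**Figure D5:**
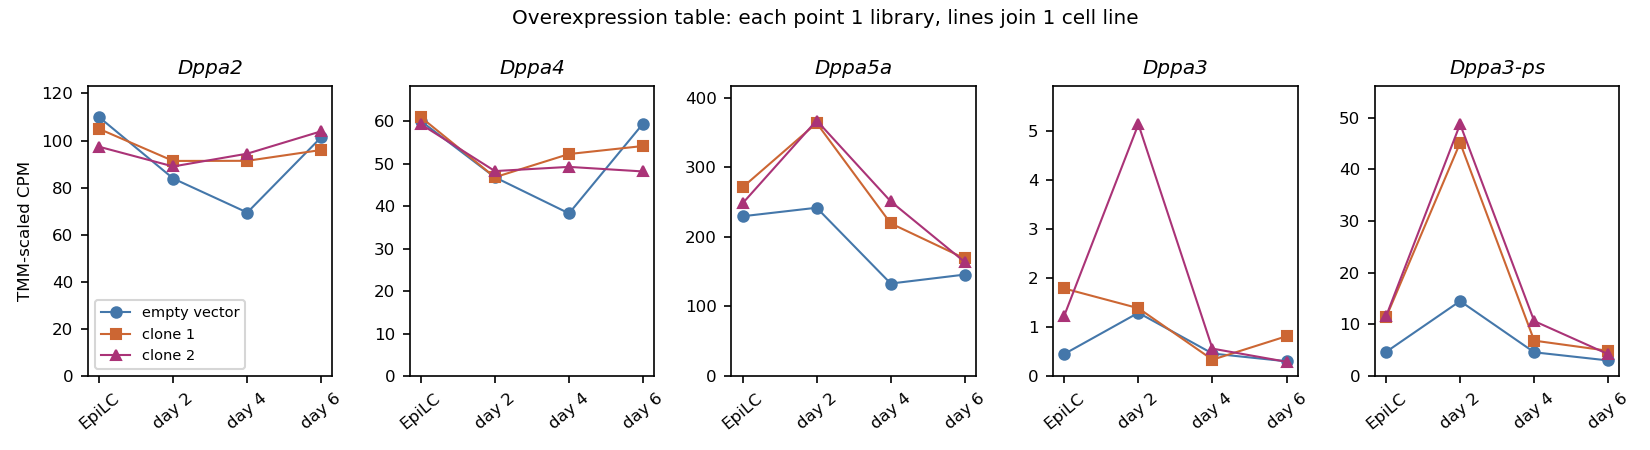
TMM-scaled CPM (vertical axes, linear from 0, a scale of its own in each panel) of the 4 Dppa genes and Dppa3-ps in the overexpression table, by stage. Each point is 1 library and lines join the empty-vector line and each clone; Dppa5a and Dppa3-ps lie above the empty vector in both clones at all stages and are highest at day 2 in each line.

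In the testis Dppa2 and Dppa4 were at a few reads. Dppa2 was at 1.20 and 0.785 in wildtype and 0.975 and 1.02 in cKO (5 to 8 reads), with the cKO values inside the wildtype range. Dppa4 was at 1.71 and 1.10 in wildtype and at 0.696 and 0.381 in cKO (3 to 10 reads), with no overlap. Summed over 4 markers each, Sertoli cell genes were at 58.5 to 81.0 in wildtype and 181 to 209 in cKO, and Leydig cell genes at 228 to 304 and 509 to 833. Spermatogonia markers, also 4, summed to 37.0 to 37.3 in wildtype and 56.4 to 58.2 in cKO, and 5 fibroblast markers to 22.4 and 69.6 to 102. The part of these cells was not tested. Neither Dppa gene was tested in limma, where 29.1% of 20658 genes were called. In the authors' deposited table the FDR was 0.992 for Dppa2 and 0.174 for Dppa4.

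Genes that the Dppa proteins act with or on were read as lists. Among 24 genes that depend on Dppa2 and Dppa4 or mark cells resembling the 2-cell embryo, 16 passed the filter on low values in the overexpression table and 5 in the degron table. Of the 16, 5 passed only through their EpiLC libraries, and of the 5, Zscan4d, Zscan4a and Usp17le passed only through the day 2 dTAG13 libraries, so no count over the list is given. Zscan4d and Zscan4a are zinc finger genes of the 2-cell stage, and with Usp17le they belong to families of near-identical genes, so their counts are uncertain. These 3 pass the filter in the overexpression table without any 1 stage, and there Zscan4d fell by 1.78 from EpiLC to day 2 (limma adjusted p 1.04e-09) and differed by -2.48 from day 2 to day 4 (2.34e-11). Over all stages it differed in the clones from the empty vector by -0.73 (limma adjusted p 2.79e-04), Zscan4a by -0.77 (0.00137) and Usp17le by -0.80 (0.00129). In the degron table Zscan4d was at 0 in both EpiLC libraries, at 1.38 and 2.58 in day 2 DMSO, at 6.84 and 7.89 in day 2 dTAG13, at 0.107 and 0 in day 4 DMSO and at 0.733 and 1.11 in day 4 dTAG13. Zscan4a was at 0.629 and 1.09 in day 2 DMSO and 3.57 and 4.95 in dTAG13, and Usp17le at 0.252 and 0.271 and at 4.66 and 4.15. The day 2 dTAG13 libraries were the highest for all 3 genes, a pattern given without a test because the filter selected on it. Syce1 and Mael, germline genes of the same list, were not called under dTAG13.

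Among the 8 genes of DNA methylation with which Dppa3 is tied, 4 were lower and 1 higher under dTAG13 at day 2 (median -0.35, against -0.09 over all genes), and 5 and 1 at day 4 (median -0.54, against -0.13). In these comparisons 33.6% and 41.8% of all genes were called, and 19.9% and 26.0% were lower. Uhrf1, the factor that brings the maintenance methylase to DNA, fell by 0.89 and 1.36 (limma adjusted p 1.06e-06 and 9.27e-10). Tet1 and Tet2, which oxidise methylcytosine, fell on both days, Tet1 by 0.85 and 0.73 and Tet2 by 0.60 and 0.60. Dnmt3a, a de novo methylase, fell by 0.40 and 0.67. The 1 gene that rose was Dnmt3l, a cofactor of de novo methylation, by 0.99 and 1.72. Over all stages of overexpression 1 of the 8 was lower, Dnmt3a by 0.29, and none higher, where 8.76% of all genes were called. At day 2 of overexpression 4 of 8 were lower and none higher (median -0.30, against -7.98e-04), where 5.95% of all genes were called, and at day 4 1 was lower, Dnmt3a, and 1 higher, Dnmt3l, where 7.89% were called. In EpiLCs 1 was lower and at day 6 none was called, where 2.71% and 2.02% were. Dnmt3a fell by 0.53 at day 2, Dnmt3b by 0.53, Tet1 by 0.27 and Dnmt3l by 1.08. From EpiLC to day 2, 6 of 8 were lower and 1 higher in the degron table, and 4 lower and 2 higher in the overexpression table, where 26.2% and 46.3% of all genes were called in either direction, with Dnmt3b down by 2.55 and 2.51.

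The 2 tested genes of 6 that share the KH-type domain of Dppa5a, Ooep and Khdc3 of the egg's subcortical complex, were lower under dTAG13 on both days, as were 19.9% and 26.0% of all genes. Ooep fell by 0.91 and 0.49 (limma adjusted p 4.71e-04 and 0.0341) and Khdc3 by 1.21 and 0.69 (0.00122 and 0.0415). Neither was called over all stages of overexpression, and at day 4 Ooep was higher in the clones by 0.81 (limma adjusted p 0.0122) and Khdc3 was not called (-0.13, 0.906), where 7.89% of all genes were called. Beside Dppa3 on chromosome 6, 3 of 4 tested genes were lower at day 2 and 2 of 4 at day 4, against the same shares of all genes. Nanog, a core factor of pluripotency, fell by 1.51 at day 2 and 1.69 at day 4, and Slc2a3, a glucose transporter, by 1.34 and 1.12. Gdf3, a TGF-beta family ligand, fell by 0.90 at day 2 and differed by -0.28 at day 4, and Apobec1 rose by 1.35 at day 4. Of 18 pluripotency and germ cell genes, 13 were lower and 1 higher on each day of dTAG13, where 19.9% and 26.0% of all genes were lower (median -0.72 and -1.06, against -0.09 and -0.13). Over all stages of overexpression 4 were higher and 1 lower (median 0.09, against 0.01), where 8.76% of all genes were called. By stage, 2 were higher and 5 lower in EpiLCs, 3 and 0 at day 2, 4 and 1 at day 4, and 1 and 1 at day 6, where 2.71%, 5.95%, 7.89% and 2.02% of all genes were called. Nanog was lower in the clones in EpiLCs (-0.29, limma adjusted p 0.0203) and higher over all stages (0.24, 0.0449).

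Genes on either side of the 4 were read for position, beside the 19.9% and 26.0% of all genes called lower at day 2 and day 4. The 20 tested genes nearest Dppa5a had a median difference of -0.34 at day 2 and -0.36 at day 4 under dTAG13, with 5 and 9 called lower and 2 and 3 higher. The 19 tested genes nearest Dppa2 had medians of -0.30 and -0.20, with 6 and 5 called lower and 4 and 2 higher. The 20 nearest Dppa3 had medians of -0.36 and -0.30, with 9 and 7 called lower and 1 and 2 higher. Chromosome 6, which carries Dppa3, had a median that differed from that of the other autosomes by -0.27 at day 2 and -0.12 at day 4, whereas chromosomes 9 and 16 lay within 0.06 of the others on both days.

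The genes whose levels ran most like each member are given as a description over the libraries of a table, which share groups and scaling. Over the 10 degron libraries the closest to Dppa2 were Slc9a3r1, Stip1 and Fbxo45 (Pearson r 0.989, 0.988 and 0.988), to Dppa4 Slc9a7, Abcd4 and Osgin1 (0.974, 0.972 and 0.956), to Dppa5a Meis2, Hps1 and Rpl36a-ps3 (0.976, 0.970 and 0.969) and to Dppa3 Nlrp9b, Olfr292 and Peg3 (0.940, 0.931 and 0.930). Over the 12 overexpression libraries they were the pseudogene Gm9788, Zbtb46 and Gm16845 for Dppa2 (0.964, 0.957 and 0.932), Bcat2, Zbtb46 and Grwd1 for Dppa4 (0.916, 0.912 and 0.894), and Dstn, the pseudogene Gm6083 and Adh5 for Dppa5a (0.970, 0.956 and 0.951). For Dppa3, which passed the filter there only through its day 2 clone libraries, they were Rps15a-ps7, Nudt5 and Gm15772 (0.946, 0.936 and 0.926). In the degron libraries Slc9a7, Osgin1 and Olfr292 were at 0.322 or less at their lowest. Dppa2 and Dppa4 had r 0.211 in the degron table and 0.855 in the overexpression table. Dppa5a and Dppa3-ps had r 0.052 and 0.909.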

How the data were processed

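The deposited tables hold TMM-scaled values (a signal, in CPM) deposited by the authors, per the file headers; values were whole multiples of 1 step per library, so whole reads could be recovered (100% of values within 0.02 reads). The authors' log2 fold changes, p-values and FDR columns, per the file headers, come from a test not given in the sources used here. Bowtie2 2.3.4.3, SAMtools 1.9, HTSeq 0.11.2, edgeR 3.26.8 and mm10 are named in the submitters' processing notes, with no roles. Per the labels, the degron and testis libraries were made with an Ovation kit (NuGEN) and the overexpression libraries with Universal Plus mRNA-Seq (TECAN).

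Genes with a mean of at least 1 were tested with limma 3.58.1 in R 4.3.3 on log2(value + 1) with a variance trend, with calls at adjusted p under 0.05. This scale understates changes of low genes. The fits had 1 mean per group, except that stages were compared with line as a block and overexpression over all stages with stage as a covariate. Count tests on recovered reads (edgeR 4.0.16, DESeq2 1.42.0), scalings, filters, blocks and left-out libraries were alternatives. The fit was tested on simulated data with independent libraries, the same dispersion setting for all genes and no effect of cell line. That test therefore does not cover differences between lines. A copy was a processed pseudogene in GENCODE M21 sharing at least 10 words of 50 bases with the gene. Named genes are the members, other Dppa features, up to 5 most abundant genes of each list and the 3 most alike genes; other list genes and copies were named after their values were seen. The members and lists were chosen with earlier results of these data known. Floors of 3 reads cover counting error only, since reads carried no molecular identifiers.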

Additional observations from a re-analysis of the deposited data

Results flagged for a closer look

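The effect of Tex10 overexpression on Dppa5a differed between stages (limma F test, adjusted p 0.00195). The differences were 0.18 in EpiLCs, 0.59 at day 2, 0.81 at day 4 and 0.19 at day 6. The call was lost with no filter on low values (adjusted p 0.122) and without the variance trend (0.421). Each stage has 1 empty-vector library, assumed to vary like the clones, so the test rests on single libraries in that arm, and none could be left out without losing its stage. The empty-vector library of day 4, where the difference was highest, was the lowest of its line for Dppa5a, Dppa2 and Dppa4. When single clone libraries were left out the adjusted p ran from 2.93e-04 to 0.0213.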

How the results depend on the processing

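For the 4 genes and Dppa3-ps, 70 results were recomputed, giving 1061 values under alternatives. None that was called reversed, 60 lost their call, 18 gained one and 983 stayed on their side of the threshold, 42 of which changed sign while called in neither fit. The report gives those that touch its statements; causes were not tested.

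Counts of called genes moved by over 1.5 times in these cases. With no filter on low values there were 341 from day 2 to day 4 DMSO (916 as reported), 16 for the day difference under dTAG13 (208), 476 from day 4 to day 6 (1049), 642 for overexpression over all stages (1337), 1161 in EpiLCs (413), 759 at day 6 (308) and 2210 between stages (471). Without the variance trend these were 445, 0, 276, 431, 1, 3 and 0, and there were 4 at day 2 (908), 7 at day 4 (1203), 2238 from day 2 to day 4 in the overexpression table (3509) and 2135 in testis (6016). Beside the counts of 0, limma with the trend had 2013 and 2458 genes at an unadjusted p under 0.05, and DESeq2 called 281 for the day difference. DESeq2 called 166 in EpiLCs, 488 at day 2, 491 at day 4 and 172 at day 6. A fit of only the compared libraries gave 551 from day 2 to day 4 DMSO.

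Leaving out 1 library gave 2496 to 3098 from EpiLC to day 2 DMSO (4347), 425 to 1104 from day 2 to day 4 DMSO, 3603 to 4208 for dTAG13 at day 2 (5577) and 44 to 366 for the day difference. In the overexpression table it gave 2232 to 3288 from day 2 to day 4 and 411 to 779 from day 4 to day 6, and leaving out a whole clone 1564 and 1614, and 255 and 306. Overexpression counts ran from 751 (without the empty-vector library of day 4) to 1625 over all stages, or 413 and 425 without a clone, 168 to 174 in EpiLCs, 671 to 1088 at day 4, 127 to 148 at day 6 and 197 to 564 between stages, and testis from 3148 to 6085. After median-ratio scaling 53.4% of calls at day 2 and 50.2% at day 4 of dTAG13 were higher, against 40.7% and 37.8%, and after quantile normalization 53.3% against 43.8% from EpiLC to day 2 DMSO.

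By the labels, same-numbered libraries share only a number, so whether they were paired is not known. Pairing correlations were 0.118, 0.093, -0.025, -0.069 and 0.116 for the 5 comparisons of the degron and testis tables. The replicate block gave 4247, 902, 5507 and 6894 genes in the degron comparisons and 7185 in testis. Without the block by line, 498 genes were called from day 4 to day 6. At 7 to 17 reads, depth limits what Dppa3 can show in the degron table.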
